A study of Arabidopsis thaliana with 6 samples.

Results

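The loci described here are the genes whose transcripts were low in one library alone, the third Fe-deficient library of Arabidopsis thaliana anthers (called Fe-deficient 3), and not in the other 5 libraries. Levels are CPM, the estimated read counts of all transcripts of a locus, scaled to a common library total. A locus was included where it had at least 2 CPM in each of the 5 other libraries and where the lowest of those 5 values was at least 3 times the value in Fe-deficient 3. Loci of the mitochondrial and chloroplast genomes were left out, as were the ferritin genes FER1, FER3 and FER4, the vacuolar iron transporter gene VTL1 and the iron superoxide dismutase gene FSD1. The rule found 31 loci among 33027 in all, which is 0.181% of the 17139 loci that reached 2 CPM in the other 5 libraries. Of the 31, 29 were protein-coding, 1 was annotated as a pseudogene and 1 as a long non-coding RNA.

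The Fe-deficient group held 3 libraries from wild-type Col-0 plants kept for 18 days on medium to which no NaFe-EDTA was added. The control group held 3 libraries from Col-0 plants kept for the same time with NaFe-EDTA, written in the labels as 50 mM, a unit that could not be checked. All plants had first grown with iron for 28 days, 10 on plates and 18 in hydroponics, and RNA was taken from whole anthers at a stage the labels abbreviate as PMC-TC. Nothing in the labels says that replicate libraries stem from different plants, so p-values measure only the spread between libraries, which may be technical.

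Iron is built into heme, into iron-sulfur clusters and into mononuclear and dinuclear centres of enzymes. Plants short of iron raise the genes for uptake and lower many genes for iron storage and for proteins that hold iron, so that the remaining metal goes to fewer users. Ascorbate peroxidases are heme enzymes that remove hydrogen peroxide, SUFB belongs to the scaffold on which plastids assemble iron-sulfur clusters, and purple acid phosphatases carry a ferric ion beside a second metal ion at their active site. In anthers, the tapetum feeds the developing pollen and the surrounding wall layers are partly green.

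Library totals ran from 16818176 to 21666427 estimated counts in Fe-deficient libraries and from 17474137 to 22710901 in controls. A count of 3, used as the floor for a value of 0, corresponded to 0.138 CPM in Fe-deficient 3. Of 18 genes known to rise under iron shortage, 14 were higher in Fe-deficient 3 than in every other library, and FIT, IRT1, FRO2 and MYB10 were not. The 18 summed to 3678 CPM in Fe-deficient 3, against 334 and 232 CPM in Fe-deficient 1 and 2 and 236 to 277 CPM in controls. The libraries labelled Fe-deficient 1 and 2 thus did not show the high level of Fe-deficient 3. Of the 18 genes, 6 had at least 2 CPM in the other 5 libraries. Both libraries were above all controls for 2 of these 6, PYE and ZIF1. By plain CPM, 15.9% of the 21490 loci tested without Fe-deficient 3 were. Both were below all controls for 1, IRT1, where 44.8% of the 21490 loci were. For ZIF1, Fe-deficient 2 exceeded control 2 only narrowly, 73.37 against 73.31 CPM. Whether the labels of Fe-deficient 1 and 2 are right was not tested. Every comparison of these libraries with the controls rests on the labels. Anther markers were present in all libraries. Summed tapetum markers ran from 638 to 1640 CPM in Fe-deficient libraries and from 2053 to 4113 CPM in controls, and pollen and sperm markers from 3816 to 10097 CPM and from 942 to 4077 CPM in the same order. The tapetum regulator DYT1 was at 0 counts in Fe-deficient 2 and the pollen tube receptor gene ANX2 in control 1. Of 13 marker lists, 6 had their lowest sum in Fe-deficient 3, those of meiocytes, pollen coat, endothecium, nectary, guard cell and root, and none of the 13 sums in that library was under 76.3% of the lowest other library. The nectary sum of 133 CPM there was mostly CWINV4 at 127 CPM. CRC of the nectary list and FAMA of the guard cell list were highest in Fe-deficient 3. The root list held IRT1 and FRO2, which are also on the list of genes known to rise. The part of the marker sums in the low levels of the 31 loci was not tested. In whole anthers, fewer cells of a type and less RNA per cell cannot be told apart.

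The rule used the values of Fe-deficient 3, so all comparisons of that library with the other 5 are descriptions of how the loci were chosen, without a test. Applied to each library in turn, the same rule found 16 loci for Fe-deficient 1, 43 for Fe-deficient 2, 324 for control 1, 2 for control 2 and 0 for control 3. Having loci low in one library alone was thus seen for 5 of the 6 libraries. With values under the floor set to 3 counts, 11 of the 31 loci were more than 5-fold below the lowest other library, against 3 of 16 for Fe-deficient 1, 11 of 43 for Fe-deficient 2 and 173 of 324 for control 1.

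**Figure D1:**
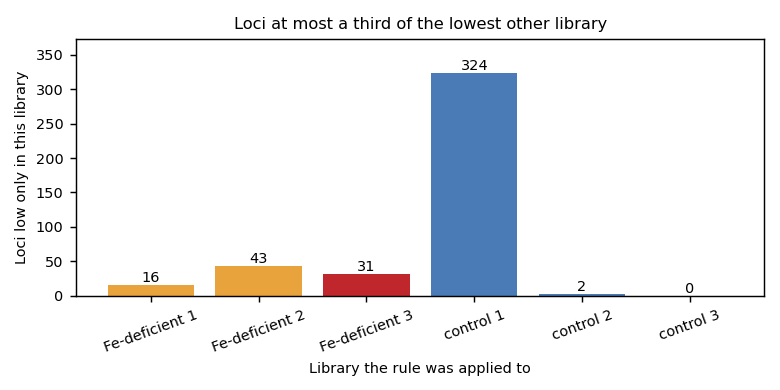
Number of loci at least 3-fold below the lowest other library when the rule was applied to each of the 6 libraries. Fe-deficient 3 gave 31 loci, while control 1 gave 324 and control 3 gave 0.

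The 31 loci were between 3.01-fold and 62.5-fold lower in Fe-deficient 3 than in the lowest other library, with a median of 3.72-fold. For 5 loci the difference was over 10-fold, for 6 between 5-fold and 10-fold, and for 20 at most 5-fold. Fe-deficient 3 held between 1 and 3411 counts per locus, fewer than 10 for 4 of them. Among the 5 other libraries the highest value was a median of 1.93 times the lowest for these loci, against 1.64 times for all 17139 loci, and it was less than 2 times the lowest for 17 of the 31. The loci were grouped by what their products are known for, a grouping made after the values were seen. Of the 31, 11 encode proteins that hold iron or heme, assemble iron-sulfur clusters or make tetrapyrroles, 4 of them purple acid phosphatases. A further 2 encode a copper transporter and a predicted copper enzyme. The share of such genes among all loci was not counted, so whether 11 of 31 is a high share cannot be said.

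**Figure D2:**
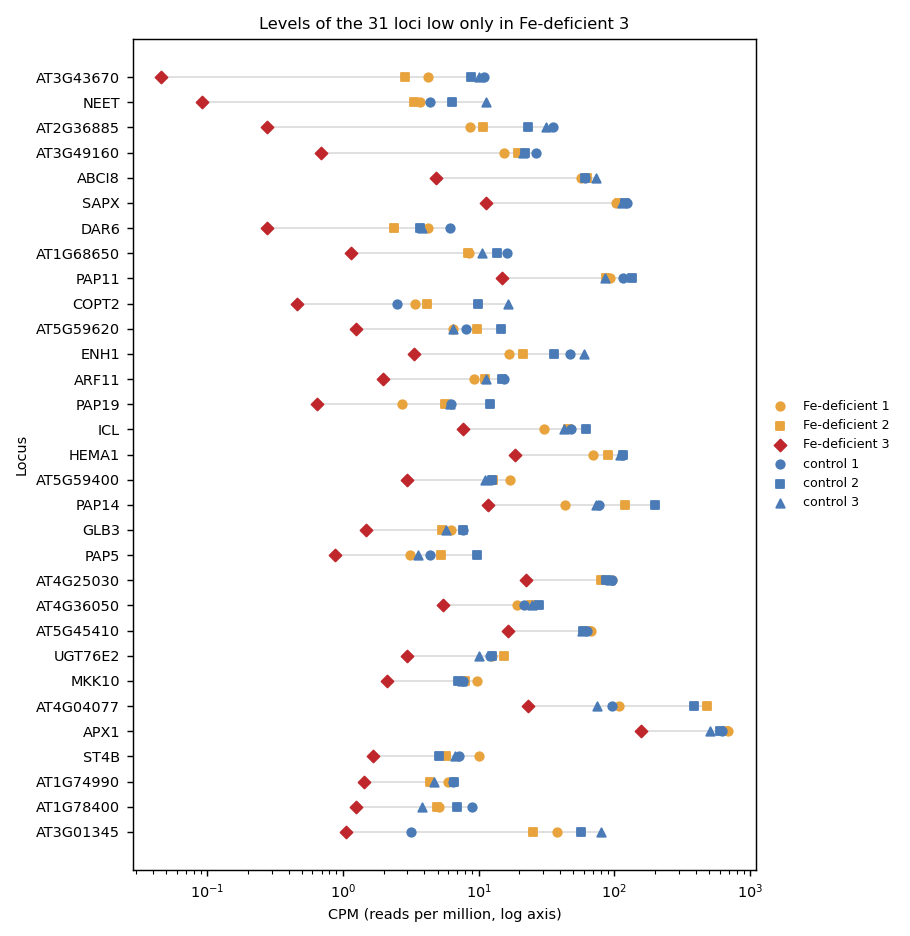
CPM of each of the 31 loci in each library, on a log axis, ordered from the largest to the smallest fold between the lowest other library and Fe-deficient 3. The Fe-deficient 3 points lie left of all others by the rule, from 0.0462 CPM (AT3G43670) to 157 CPM (APX1). ABCI8 is the reference symbol of SUFB.

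Among proteins that carry or build iron-sulfur clusters, NEET and SUFB were far lower in Fe-deficient 3. NEET (AT5G51720, TAIR10.1 chromosome 5, 21009347 to 21010345, plus strand, 2 exons), a 2-iron 2-sulfur protein with a role in iron and reactive oxygen balance, had 0.0923 CPM in Fe-deficient 3, against 3.69 and 3.35 CPM in Fe-deficient 1 and 2 and 4.36, 6.41 and 11.3 CPM in controls 1, 2 and 3. Its 2 counts in Fe-deficient 3 put it 36.3-fold below Fe-deficient 2, with a 95% exact binomial counting interval of 9.65 to 306, and the other 5 libraries themselves spanned 3.37-fold. SUFB (AT4G04770, ABCI8 in the reference, chromosome 4, 2427686 to 2429899, minus strand, 2 exons) had 4.85 CPM in Fe-deficient 3, against 56.7 and 62.4 CPM in Fe-deficient 1 and 2 and 60.9, 60.7 and 73.8 CPM in controls 1, 2 and 3. The 5 other libraries lay close together, and Fe-deficient 3 was 11.7-fold below the lowest of them (95% counting interval 9.56 to 14.5). ENH1 (AT5G17170, chromosome 5, 5649057 to 5651205, 6 exons), annotated as a rubredoxin family protein, a kind of protein in which 1 iron atom is held by cysteines, had 3.37 CPM in Fe-deficient 3, against 16.8 and 21.2 CPM in Fe-deficient 1 and 2 and 47.2, 35.7 and 59.8 CPM in controls 1, 2 and 3. Here Fe-deficient 1 and 2 lay between Fe-deficient 3, which is lowest by the rule, and all controls. By plain CPM, Fe-deficient 1 and 2 were below all controls for 10 of the 31 loci, where 44.8% of the 21490 loci tested without Fe-deficient 3 were.

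Heme proteins were represented by ascorbate peroxidases of the plastid and the cytosol and by a hemoglobin. SAPX (AT4G08390, chromosome 4, 5314871 to 5317963, plus strand), the stromal ascorbate peroxidase, had 11.4 CPM in Fe-deficient 3, against 102 and 109 CPM in Fe-deficient 1 and 2 and 125, 119 and 113 CPM in controls 1, 2 and 3. It was 8.91-fold below the lowest other library (95% counting interval 7.79 to 10.2), and those 5 spanned 1.22-fold. APX1 (AT1G07890, chromosome 1, 2437281 to 2439665, plus strand), the main cytosolic ascorbate peroxidase, had 157 CPM in Fe-deficient 3, against 687 and 647 CPM in Fe-deficient 1 and 2 and 615, 596 and 502 CPM in controls 1, 2 and 3. With 3411 counts in Fe-deficient 3 its fold of 3.19 had the narrowest counting interval of the 31, 3.07 to 3.32. The gene lay close to the limit of the rule, and Fe-deficient 1 and 2 were above all controls. GLB3 (AT4G32690), a truncated hemoglobin, had 1.48 CPM in Fe-deficient 3, against 6.24 and 5.36 CPM in Fe-deficient 1 and 2 and 7.66, 7.73 and 5.72 CPM in controls 1, 2 and 3. HEMA1 (AT1G58290, chromosome 1, 21623700 to 21626402, minus strand, 3 exons), a glutamyl-tRNA reductase at the first committed step of heme and chlorophyll synthesis, had 18.7 CPM in Fe-deficient 3, against 69.6 and 89.3 CPM in Fe-deficient 1 and 2 and 114, 115 and 111 CPM in controls 1, 2 and 3. The control values of HEMA1 differed little (113 ± 2.25 CPM, SD, n = 3), and both other Fe-deficient libraries lay below them.

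A list of 18 genes known to fall under iron shortage in Arabidopsis held 4 of the 31 loci, NEET, SAPX, APX1 and SUFB. Of the 18, 15 reached 2 CPM in the 5 other libraries, and 5 of these were the loci the rule leaves out. Of the 5, all but FER3 were also at least 3-fold below the lowest other library in Fe-deficient 3. FER1 had 33.6 CPM there and at least 361 CPM elsewhere, and FSD1 was at 0 counts. Of the remaining 6, Fe-deficient 3 was below all 5 other libraries for 3, the metal-nicotianamine transporters YSL1 (1.70-fold) and YSL3 (1.77-fold) and the catalase CAT2 (1.33-fold). It lay within their range for TAPX, CPISCA and CAT3 and above it for 0, and the lowest other library was a median of 1.12 times Fe-deficient 3 for these 6. Over all 17139 loci, 16.0% lay below all others in Fe-deficient 3 and 23.7% above, and the same ratio had a median of 0.740. TAPX, the thylakoid ascorbate peroxidase, had 52.9 CPM in Fe-deficient 3, against 31.9 and 33.5 CPM in Fe-deficient 1 and 2 and 46.2, 47.3 and 70.8 CPM in controls 1, 2 and 3. In Fe-deficient 3, SAPX thus lay below all other libraries while TAPX lay within their range; the difference was not tested. CPISCA, an iron-sulfur carrier protein of the plastid, had 53.8 CPM in Fe-deficient 3, against 56.0 and 51.6 CPM in Fe-deficient 1 and 2 and 49.1 to 54.8 CPM in controls, within the range of the others.

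**Figure D3:**
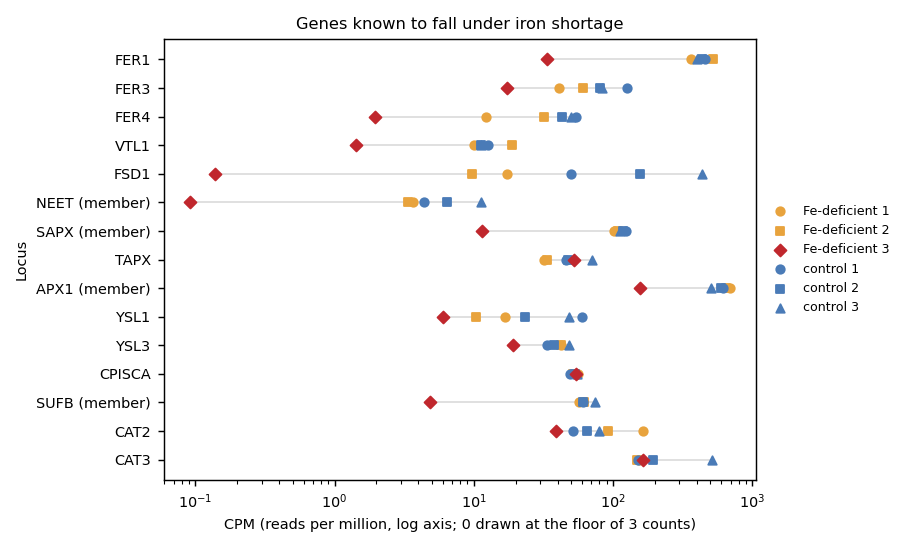
CPM per library, on a log axis, of the 15 genes known to fall under iron shortage that had at least 2 CPM in the 5 other libraries; the 4 loci found by the rule are marked as members. Fe-deficient 3 lies left of all other libraries for 12 genes, 4 of them by the rule and 5 of them loci that the rule leaves out. Of the other 6 genes it lies left of all for 3, where 16.0% of all 17139 loci do. It lies within the range of the others for TAPX, CPISCA and CAT3. FSD1 at 0 counts is drawn at the floor of 3 counts.

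Of the copper-related loci, AT3G43670 (chromosome 3, 15567067 to 15569984, plus strand, 7 exons), annotated as a copper amine oxidase family protein, showed the lowest value in Fe-deficient 3. It had 1 count there, 0.0462 CPM, against 4.22 and 2.89 CPM in Fe-deficient 1 and 2 and 11.1, 8.81 and 10.1 CPM in controls 1, 2 and 3. The ratio of 62.5 to Fe-deficient 2 had a 95% exact counting interval of 10.8 to 2513. COPT2 (AT3G46900, chromosome 3, 17268700 to 17269510, 1 exon), a copper importer, had 0.462 CPM in Fe-deficient 3, against 3.39 and 4.17 CPM in Fe-deficient 1 and 2 and 2.50, 9.84 and 16.5 CPM in controls 1, 2 and 3. Control 1 was the lowest of the other libraries for COPT2, and the 5 spanned 6.60-fold. COPT2 was the one locus of a list of 18 copper genes that met the rule. Of the 11 copper genes with at least 2 CPM in the other libraries, Fe-deficient 3 was below all others for 3, where 16.0% of all 17139 loci were. These were COPT2, by the rule, SPL7 (1.03-fold) and CCH (1.33-fold). Fe-deficient 3 was above all others for 3, where 23.7% were, the copper/zinc superoxide dismutases CSD1 and CSD2 and their copper chaperone CCS.

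The purple acid phosphatases were the family with most loci among the 31, with 4: PAP5, PAP11, PAP14 and PAP19. PAP11 (AT2G18130, chromosome 2, 7879308 to 7883935, minus strand) had 14.8 CPM in Fe-deficient 3, against 92.8 and 87.1 CPM in Fe-deficient 1 and 2 and 115, 136 and 84.7 CPM in controls 1, 2 and 3. PAP14 (AT2G46880, chromosome 2, 19264573 to 19266456, minus strand) had 11.8 CPM in Fe-deficient 3, against 43.5 and 119 CPM in Fe-deficient 1 and 2 and 77.4, 199 and 72.7 CPM in controls 1, 2 and 3. PAP14 varied 4.57-fold among the other 5 libraries, so that its distance to the lowest of them, 3.68-fold, was smaller than their own span. PAP19 (AT3G46120) had 0.646 CPM in Fe-deficient 3, against 2.74 and 5.67 CPM in Fe-deficient 1 and 2 and 6.28, 12.1 and 6.16 CPM in controls 1, 2 and 3. PAP5 (AT1G52940) had 0.877 CPM in Fe-deficient 3, against 3.15 and 5.31 CPM in Fe-deficient 1 and 2 and 4.36, 9.73 and 3.57 CPM in controls 1, 2 and 3. In all 4 genes control 2 was the highest library, as it was for 10 of the 31 loci. PAP5, PAP11 and PAP19 share sequence: between 18.7% and 19.2% of the 31-base stretches of their transcripts occur in transcripts of other loci, with another of these 3 as the main partner each time, so how the reads divide among these 3 genes is uncertain.

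The family as a whole, looked at after the values were known, had 26 loci in the files, of which 24 reached 2 CPM in the other libraries. The 4 loci of the rule are lowest in Fe-deficient 3 by choice. Of the other 20, Fe-deficient 3 was the lowest library for 12, where it was for 16.0% of all loci, and the highest for 1, PAP12, where it was for 23.7%. For 4 of the 20, PAP6, PAP23, PAP24 and PAP25, control 2 was also the highest library, a pattern first seen in the 4 loci of the rule and found in 3.83% of all 17139 loci. The family was chosen because it held loci of the rule, so these counts are a description. PAP6, PAP23, PAP24 and PAP25 missed the limit of 3-fold at 1.90-fold, 2.23-fold, 2.51-fold and 2.41-fold. PAP26, a widely expressed vacuolar and secreted phosphatase, had 215 CPM in Fe-deficient 3, against 227 and 231 CPM in Fe-deficient 1 and 2 and 182 to 222 CPM in controls, and so lay within the range of the others. PAP17, which is induced by phosphate shortage, had 26.0 CPM in Fe-deficient 3, against 60.8 and 111 CPM in Fe-deficient 1 and 2 and 30.7 to 62.2 CPM in controls. Of 12 phosphate starvation genes on a list, 9 reached 2 CPM in the other libraries. Fe-deficient 3 was below all others for 4 of these, where it was for 16.0% of all 17139 loci. It was above all others for 0, where it was for 23.7%. The 4 were SPX2 (1.03-fold), SPX3 (1.29-fold), MGD3 (1.69-fold) and PAP17 again (1.18-fold).

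**Figure D4:**
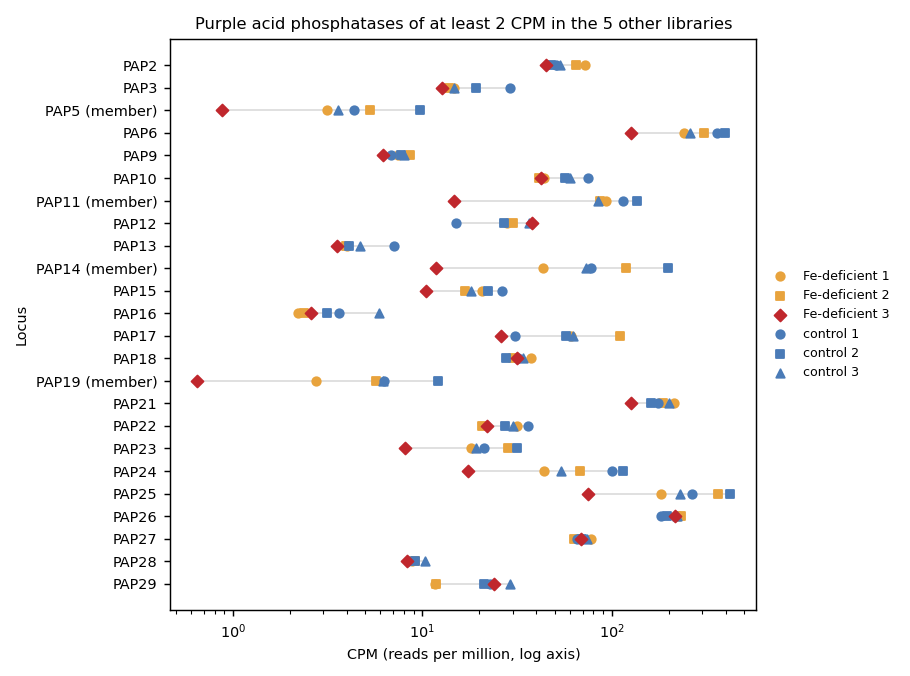
CPM per library, on a log axis, of the 24 purple acid phosphatase genes with at least 2 CPM in the 5 other libraries; the 4 found by the rule are marked as members. Fe-deficient 3 is the leftmost point for 16 genes, 4 of them by the rule, and the rightmost for PAP12.

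Central metabolism was represented by AT3G49160 and ICL. AT3G49160 (chromosome 3, 18221794 to 18224905, minus strand), annotated as a pyruvate kinase family protein, had 0.692 CPM in Fe-deficient 3, against 15.3 and 19.7 CPM in Fe-deficient 1 and 2 and 26.4, 22.1 and 21.2 CPM in controls 1, 2 and 3. The other 5 libraries spanned 1.73-fold, and Fe-deficient 3 was 22.1-fold below the lowest (95% counting interval 13.1 to 40.0). ICL (AT3G21720), isocitrate lyase of the glyoxylate cycle, had 7.71 CPM in Fe-deficient 3, against 30.3 and 45.9 CPM in Fe-deficient 1 and 2 and 47.6, 62.3 and 42.4 CPM in controls 1, 2 and 3. ICL had its highest level in control 2, as 10 of the 31 loci did, PAP5, PAP11, PAP14 and PAP19 among them.

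Regulators among the loci were ARF11, MKK10, DAR6 and AT1G74990. ARF11 (AT2G46530), an auxin response factor, had 1.98 CPM in Fe-deficient 3, against 9.34 and 11.2 CPM in Fe-deficient 1 and 2 and 15.5, 14.9 and 11.4 CPM in controls 1, 2 and 3. MKK10 (AT1G32320), a MAP kinase kinase, had 2.12 CPM in Fe-deficient 3, against 9.81 and 7.93 CPM in Fe-deficient 1 and 2 and 7.71, 7.04 and 7.62 CPM in controls 1, 2 and 3. DAR6 (AT5G66620), a relative of the growth regulator DA1, had 6 counts in Fe-deficient 3 (0.277 CPM), against 4.22 and 2.37 CPM in Fe-deficient 1 and 2 and 3.72 to 6.17 CPM in controls. The RING/U-box protein gene AT1G74990 was 3.10-fold below the lowest other library. Enzymes that modify small molecules or walls lay close to the limit: the glycosyltransferase UGT76E2 at 3.40-fold, the sulfotransferase ST4B at 3.10-fold and the pectin lyase-like AT1G78400 at 3.07-fold.

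Among proteins without a firmly known role, AT2G36885 (chromosome 2, 15482003 to 15483788, minus strand, 6 exons) was another locus with Fe-deficient 1 and 2 below all controls, as ENH1 was. It had 0.277 CPM in Fe-deficient 3, against 8.62 and 10.7 CPM in Fe-deficient 1 and 2 and 35.2, 23.2 and 31.5 CPM in controls 1, 2 and 3. The reference describes its product as a translation initiation factor. AT4G25030, described there as a serine/threonine kinase, and AT5G45410, described as a zinc finger B-box protein, were flat in the other libraries. AT4G25030 had 22.3 CPM in Fe-deficient 3, against 95.9 and 79.6 CPM in Fe-deficient 1 and 2 and 95.5, 87.5 and 93.1 CPM in controls 1, 2 and 3. AT5G45410 had 16.5 CPM in Fe-deficient 3, against 67.0 and 63.9 CPM in Fe-deficient 1 and 2 and 63.2, 58.8 and 57.6 CPM in controls 1, 2 and 3, the narrowest span of the 31 at 1.16-fold. AT1G68650, a membrane protein of the UPF0016 family, was 7.28-fold below the lowest other library, AT5G59400, a PGR5-like protein, 3.71-fold and AT4G36050, an endonuclease/exonuclease/phosphatase family protein, 3.52-fold.

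Of the remaining 3 loci, AT4G04077 and AT3G01345 varied widely among the other libraries. The long non-coding RNA AT4G04077 (chromosome 4, 1961126 to 1961951) had 23.1 CPM in Fe-deficient 3, against 109 and 484 CPM in Fe-deficient 1 and 2 and 95.6, 388 and 74.5 CPM in controls 1, 2 and 3. AT3G01345, an uncharacterized protein, had 1.06 CPM in Fe-deficient 3, against 37.6 and 25.1 CPM in Fe-deficient 1 and 2 and 3.19, 56.8 and 79.5 CPM in controls 1, 2 and 3. Control 1 was the lowest of the other libraries, far below the remaining 4, and at 3.01-fold AT3G01345 was the locus of the 31 nearest to the limit. For the pseudogene AT5G59620, 5.19-fold below the lowest other library, 57.5% of the 31-base stretches also occur in transcripts of other loci, so its reads may belong elsewhere. The loci just outside the limit were AT3G45320 at 2.92-fold, AT4G04223 at 2.86-fold, AT5G05910 at 2.82-fold and AT1G63200 at 2.78-fold.

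Sequence sharing and overlapping genes touched some of these values. For 13 of the 31 loci no 31-base stretch of their transcripts occurred in another locus, among them NEET, SAPX, APX1, ENH1, AT2G36885, COPT2 and PAP14. Over 10% was shared for 8. Of these, AT4G36050, AT5G45410 and AT3G49160 shared it mainly with a gene that overlaps them on the opposite strand, and without the strand setting of the counting, reads of such partners cannot be told apart. In the files 21 of the loci had a single transcript, for which the transcript's level is that of the locus. The other 10 loci had 15 transcripts of at least 2 CPM in the other 5 libraries. All 15 were lowest in Fe-deficient 3, which largely follows from choosing the loci by the sum of their transcripts. A further 15 transcripts were under that minimum, and 4 of these were highest in Fe-deficient 3. APX1 transcript 8 had 10.2 CPM in Fe-deficient 3, against 0.894 to 4.93 CPM in the other libraries. ARF11 transcript 2 had 1.98 CPM in Fe-deficient 3, against 0 to 0.898 CPM, and AT2G36885 transcript 2 had 0.277 CPM, against 0 CPM in the other libraries. For ARF11 and AT2G36885 these transcripts held all counts of the locus in Fe-deficient 3. The fourth, AT5G45410 transcript 2, had 0.716 CPM in Fe-deficient 3, against 0.205 to 0.704 CPM. Of the 4 loci with several such transcripts, APX1 had 3. Its transcripts 1, 3 and 6 were 2.84-fold, 3.42-fold and 1.85-fold below the lowest other library. How the division of reads among transcripts of a locus bears on these values was not tested.

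The loci lay on all 5 chromosomes, with 8, 4, 6, 6 and 7 on chromosomes 1 to 5, between 0.155% and 0.233% of the eligible loci of each. Neighbouring loci were found on chromosome 5, where UGT76E2 and AT5G59620 were 8.25 kb apart with 4 genes between them and AT5G59400 lay 49.2 kb from UGT76E2 with 21 genes between. No other pair was closer than 156 kb.

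Promoters, read from TAIR10.1 as the 250 bases before and the first 50 bases of each annotated gene, were searched on both strands for the palindrome CACGTG, the G-box that bHLH factors of the iron response and many other factors can bind, for GTAC, the core recognised by the copper regulator SPL7, and for GCCGCC, bound by ethylene response factors, each counted separately. G-boxes were found in 7 of the 29 protein-coding loci (24.1%), in 7.68% of 27443 promoters of all protein-coding genes and in 9.18% of the 16759 that had at least 2 CPM in the 5 other libraries. Counting only the 250 bases before the gene start, 5 of 29 (17.2%) held one, against 6.49% of all promoters and 7.63% of the 16759. GTAC was found in 37.9% of the 29 and in 39.0% of all promoters, and GCCGCC in 0 of the 29 and in 2.57% of all. A match is a description of letters in a window and not evidence of binding, and 24 of the 51 transcripts had the same length in the reference as in the files; whether gene starts differ between them was not tested. The 5 promoters with a G-box before the gene start are shown because they carry the motif found in a higher share of these loci than of all promoters; they read as follows, 5′ to 3′ on the gene's strand, with CACGTG in capitals.
AT2G36885 (chr2:15483739-15484038, minus strand): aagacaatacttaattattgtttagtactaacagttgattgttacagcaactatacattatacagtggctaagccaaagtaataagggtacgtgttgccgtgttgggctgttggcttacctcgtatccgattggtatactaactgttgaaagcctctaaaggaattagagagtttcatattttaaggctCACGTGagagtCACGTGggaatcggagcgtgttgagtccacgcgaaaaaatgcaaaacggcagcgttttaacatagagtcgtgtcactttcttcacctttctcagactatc
AT1G68650 (chr1:25775481-25775780, plus strand): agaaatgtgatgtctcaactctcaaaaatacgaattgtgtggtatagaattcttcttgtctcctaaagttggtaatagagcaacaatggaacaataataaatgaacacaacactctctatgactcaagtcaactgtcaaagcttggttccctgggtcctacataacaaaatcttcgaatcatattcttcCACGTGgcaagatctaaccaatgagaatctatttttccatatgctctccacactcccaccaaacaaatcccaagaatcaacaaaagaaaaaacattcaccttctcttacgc
MKK10 (chr1:11654906-11655205, plus strand): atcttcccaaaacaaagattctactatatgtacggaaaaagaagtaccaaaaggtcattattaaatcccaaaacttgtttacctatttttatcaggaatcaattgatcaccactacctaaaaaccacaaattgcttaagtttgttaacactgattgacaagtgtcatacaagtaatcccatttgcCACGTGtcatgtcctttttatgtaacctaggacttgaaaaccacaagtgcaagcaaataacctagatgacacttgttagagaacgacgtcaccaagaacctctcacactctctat
DAR6 (chr5:26588161-26588460, plus strand): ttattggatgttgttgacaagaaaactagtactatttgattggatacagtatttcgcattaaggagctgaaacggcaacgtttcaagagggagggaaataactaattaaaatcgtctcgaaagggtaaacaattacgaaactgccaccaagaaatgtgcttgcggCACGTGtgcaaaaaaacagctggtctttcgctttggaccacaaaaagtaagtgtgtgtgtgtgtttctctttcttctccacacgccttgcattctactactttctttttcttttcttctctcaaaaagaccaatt
UGT76E2 (chr5:24010639-24010938, minus strand): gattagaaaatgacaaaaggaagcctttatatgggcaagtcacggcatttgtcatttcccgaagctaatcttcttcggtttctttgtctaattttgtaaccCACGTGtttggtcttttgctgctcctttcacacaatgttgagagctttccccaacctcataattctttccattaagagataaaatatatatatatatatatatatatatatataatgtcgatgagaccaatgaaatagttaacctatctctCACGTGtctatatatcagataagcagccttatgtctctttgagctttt

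In AT2G36885, the most strongly lowered locus of the 5 at 31.1-fold, a pair of G-boxes begins 61 and 50 bases before the gene start. In AT1G68650 and MKK10 the single upstream G-box begins 61 and 65 bases before it, in DAR6 85 bases and in UGT76E2 149 bases before it, with a further one in UGT76E2 after the start. The promoters of NEET, SUFB, SAPX and APX1 hold no CACGTG in this window.

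The one comparison that leaves out the library which chose the loci is that of the libraries labelled Fe-deficient 1 and 2 with the 3 controls, and in it the loci did not move together. The rule uses the lowest of these 5 values but not which group it falls in. The fold changes here are edgeR values after TMM scaling, which corrects for a shift of the library as a whole. Of the 31 loci, 19 had a negative log2 fold change and 12 a positive one, with a median of -0.14, and of all 21490 loci tested 51.8% were negative, with a median of -0.02. At an adjusted p under 0.05, edgeR's quasi-likelihood test with Benjamini-Hochberg adjustment called 0 of the 31 lower and 0 higher, where 0.0% of all loci were called in either direction. At an unadjusted p under 0.05, 3 of the 31 were lower, where 14.7% of all loci were, and 5 were higher, where 16.9% of all loci were. DESeq2 called 3 of the 31 lower and 2 higher, where it called 9.4% and 12.8% of all loci.

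The 3 lower loci were AT2G36885, AT3G43670 and ENH1. The log2 values were -1.40 for AT2G36885 (SE 0.23), -1.25 for AT3G43670 (SE 0.26) and -1.09 for ENH1 (SE 0.25), each with an edgeR adjusted p of 0.0859. All 3 were lower in both Fe-deficient libraries than in every control, and all 3 were called lower by DESeq2. The 5 higher loci were AT5G45410 (log2 fold change 0.37, SE 0.11), AT5G59400 (0.55, SE 0.19), UGT76E2 (0.51, SE 0.18), APX1 (0.46, SE 0.17) and MKK10 (0.49, SE 0.19), with edgeR adjusted p-values from 0.0993 to 0.154. In these 5 Fe-deficient 1 and 2 lay above all controls, while Fe-deficient 3 lay below them. NEET stood at -0.83 (SE 0.44) with an edgeR adjusted p of 0.251, and HEMA1 at -0.28 (SE 0.14) with one of 0.216. For SUFB (ABCI8) and SAPX the log2 values were 0.11 (SE 0.13) and 0.06 (SE 0.11), each smaller than its standard error. In the same libraries the tapetum markers summed to 810 and 638 CPM in Fe-deficient 1 and 2 and to 2053 to 4113 CPM in controls, and the pollen and sperm markers to 8473 and 10097 CPM and to 942 to 4077 CPM; their part in these differences was not tested.

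By plain CPM, both Fe-deficient libraries lay below all 3 controls for 10 of the 31 loci, where 44.8% of the 21490 loci tested did. They lay above them for 5, where 15.9% did. With TMM-scaled CPM the counts were 5 below and 5 above, where 27.1% and 27.7% of the 21490 were. Unlike the 31, that set was not limited to loci of at least 2 CPM. The TMM factors were 0.884 and 0.909 in Fe-deficient 1 and 2 and 1.05 to 1.06 in the other libraries. The 5 loci below the controls on both scales were AT2G36885, AT3G43670, ENH1, HEMA1 and AT1G68650.

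**Figure D5:**
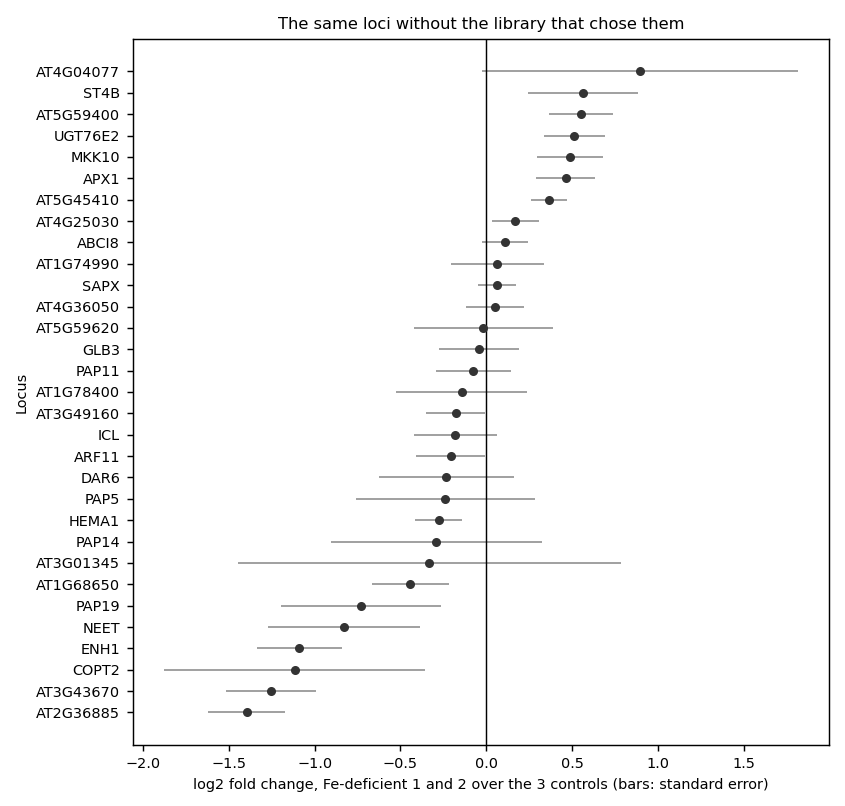
log2 fold change of Fe-deficient 1 and 2 over the 3 controls, with standard errors, for the 31 loci in the edgeR fit without Fe-deficient 3. The loci spread from -1.40 (AT2G36885) to 0.89 (AT4G04077), with 19 below 0 and 12 above.

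With all 6 libraries, edgeR called 0 of 21267 loci at an adjusted p under 0.05, so 0.0% in either direction. At an unadjusted p under 0.05 it found 7.34% of loci higher and 6.09% lower, with 0 of the 31 in either set. DESeq2 called 1.38% of loci lower and 2.05% higher, again with 0 of the 31 in either set. Of the 31, 25 had a negative log2 fold change in this fit, where 49.7% of all loci did. The rule used this contrast, so these counts describe the choice of the loci.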

How the data were processed

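RNA-seq files of 6 libraries were used. Per the submitters' processing notes, Trimmomatic 0.35, Salmon 0.12.0 and the TAIR10 build were used. Per the file headers, the deposited values are the authors' estimated counts and TPM per transcript, with transcript length and effective length as another measure. The strand setting of the counting is not given. For each of 33027 loci the values of its transcripts, 41086 in all, were added up, and tests ran on the rounded sums. Names and coordinates are those of TAIR10.1 (1-based), in which 32341 loci and all 31 members were found.

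Groups and numbers came from sample titles. Tests were edgeR 4.0.16 quasi-likelihood fits with filterByExpr, TMM and a model with the group alone. The Benjamini-Hochberg threshold was 0.05 across every locus that entered the fit. The fit was tried on simulated counts whose spread between libraries was capped. That trial cannot show what the fit would find in these libraries. DESeq2 1.42.0, limma 3.58.1 (R 4.3.3), TPM, other scalings and filters, a replicate block and left-out libraries were alternatives. Python 3.11.15 and matplotlib 3.10.9 were used besides. Intervals are 95% exact binomial intervals on rounded counts, and these and the floors of 3 counts cover counting error only.

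The members and gene lists were chosen with earlier results of these data known. By the naming rule, loci were named for the largest fold, highest level, nearness to the limit, membership in a list, lowest p without Fe-deficient 3, closeness on the chromosome or transcript differences, and all 31 members are named. Roles, the purple acid phosphatase family and the other list genes named were chosen after their values were seen. Of 297 list genes 296 were in the files, and 25 of the 27 lists held no member. Of 15 pairs of libraries, 0 held identical values.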

Additional observations from a re-analysis of the deposited data

How the results depend on the processing

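The number of loci low only in Fe-deficient 3 was 31. It was 100 at a limit of 2-fold and 14 at one of 4-fold. Leaving out 1 other library, which can only add loci, gave between 32 and 48, with 48 without Fe-deficient 1 and 47 without control 1. With controls 1 and 2 both left out, an alternative chosen after seeing the data, it was 107. TMM-scaled CPM gave 35 loci with all 31 among them, TPM gave 36 with 27 of the 31, a minimum of 1 CPM gave 41 and one of 5 CPM gave 22. Without scaling, the median log2 fold change of all loci moved from -0.02 to -0.26 in the fit without Fe-deficient 3, and 24 of the 31 loci were then negative. With all libraries, edgeR called 0 loci and DESeq2 730, and the replicate block and each left-out library gave 0. For Fe-deficient 1 and 2 against control, edgeR called 0 loci, DESeq2 4765, limma on log2(TPM + 1) 1358 (64 higher and 1294 lower), and leaving out 1 library gave 0 to 92, with 92 without control 3. With the replicate number as a block, which needs replicates 1 and 2 of each group alone, edgeR called 330. The deviations of same-numbered libraries from their group means correlated at -0.19, 0.45 and -0.11 for numbers 1, 2 and 3. Between differently numbered libraries the correlations ran from -0.35 to 0.34. These few values cannot settle whether libraries of the same number belong together, and the cause of the differences between settings was not tested. The 8 loci with an unadjusted p under 0.05 in the main edgeR fit of this comparison kept their direction in all 104 alternative values. Adjusted p-values of AT2G36885 lay between 2.86e-05 and 0.321 across these settings. These 8, more than the naming rule had planned, were chosen by p in the same libraries, so a kept direction is no independent support. At an unadjusted p under 0.05, the main edgeR fit had 5 of the 31 loci higher and 3 lower. Without scaling, edgeR had 0 higher and 5 lower, and limma on log2(TPM + 1) had 0 higher and 7 lower. The log2 value of AT5G45410 was 0.37, 0.13 and 0.05 in these 3 fits. Values of under 10 counts in Fe-deficient 3, for AT3G43670, NEET, AT2G36885 and DAR6, are limited by depth.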
